A study of Mus musculus with 10 samples.

Results

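The genes described here are 9 transport genes of the collecting duct: the sodium pump beta subunits Atp1b1 and Atp1b3, and the potassium channel genes Kcnj1, Kcnj10, Kcnj16, Kcnma1, Kcnn4, Kcnk1 and Kcnq1. They were chosen by name from the 55414 genes of the table, with no measured value in the rule, although earlier results of these data were known. All 9 were found, and 8 of them were among the 20000 genes with the highest mean TPM, which were the ones tested. The exception was Kcnma1. In these cells Atp1b1 was the 143rd and Kcnk1 the 343rd most abundant transcript, whereas Kcnj1, Kcnma1 and Kcnn4 lay at or near 0.

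Sodium reabsorption and potassium secretion in the collecting duct are driven by the Na,K-ATPase of the basolateral membrane, which exchanges intracellular sodium for extracellular potassium. An alpha subunit carries out transport, a beta subunit is needed for folding and delivery of the pump to the membrane, and small FXYD proteins adjust its kinetics. Potassium that enters through the pump is either recycled across the basolateral membrane, where Kir4.1 and Kir5.1 channels set the membrane potential, or secreted into the lumen through ROMK and the calcium-activated BK channel.

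RNA-seq was done on mpkCCD cells, an immortalized line from the cortical collecting duct of the C57BL/6 mouse, which were grown on filters with the vasopressin analog dDAVP at 0.1 nM for 7 days. The intact group held 5 samples of 3 cell lines, namely the parental line (1 sample) and intact clones 1 and 2 (2 samples each), which had gone through transfection and kept CAMK2D, a calcium/calmodulin-dependent kinase. The KO group held 5 clones with CRISPR-Cas9 mutations in Camk2d, each derived from a single cell and each with 1 sample. KO 1 and KO 2 were made with a guide to exon 8, and KO 3, KO 4 and KO 5 with another to exon 9. The assignment of guides to clones comes from the study's supplementary material and not from the sample labels. Whether the paired samples of an intact clone were separate cultures is not stated in the sources used here, so p-values measure the spread between these samples, which may be technical. Values are TPM, a share of all transcripts, which are scaled by transcript length and can therefore be compared between genes. They keep no record of sequencing depth, which is unknown here.

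The targeted gene Camk2d was 123 to 141 TPM in the intact group and 19.8 to 29.8 TPM in the KO group, without overlap. Between 19344 and 20052 genes per sample were above 0. Across genes, the median correlation of a sample with the other samples was lowest for KO 2 (Pearson's r 0.9825) and KO 1 (0.9846), against 0.9868 to 0.9881 for the other 8 samples. Of the principal cell markers, all 12 were among the genes tested, and their summed level was 5153 to 7146 TPM in intact samples and 2543 to 5373 TPM in KO clones. Most of the sum in intact samples was Aqp2, with 3773 to 5502 TPM. Scnn1b was only 0.04 to 0.39 TPM and Aqp3 1.1 to 3.34 TPM. Aqp4 was 7.0 and 8.54 TPM in intact clone 1 but 0.1 and 0.18 TPM in intact clone 2. The other markers of this list had a mean of at least 11.3 TPM, the mean of St6gal1. The intercalated cell markers gave a mixed result. With 7 of 13 genes tested, the list summed to 37.3 to 128 TPM in intact samples and 41.8 to 194 TPM in KO clones, most of it Rhcg, with up to 159 TPM, and Atp6v1b1, with 21.8 to 49.3 TPM. Dmrt2 was 4.5 to 9.28 TPM and Aqp6 0.64 to 7.11 TPM. Slc4a9 reached 0.56 TPM, Slc26a4 0.32 TPM in KO 1, Slc4a1 0.04 TPM and Foxi1 0.02 TPM, and Atp6v1g3 and Insrr were listed at 0 in every sample. The thick limb and distal convoluted tubule markers, with 3 of 6 tested, summed to at most 1.2 TPM in any sample, and 3 of the 6 were listed at 0 throughout. Of the proximal tubule markers, 1 of 6 was tested, the endocytic receptor Lrp2, and the list summed to at least 7.54 TPM in intact samples and to 6.53 to 15.1 TPM in KO clones. No gene of the marker lists was called between KO and intact samples with limma, against 0.005% of all genes. At an unadjusted p under 0.05, Aqp2 (log2 ratio -0.89, adjusted p = 0.565) and Cldn16 (-0.15, adjusted p = 0.684) were lower and Rhcg (3.85, adjusted p = 0.651) higher in KO clones. The share was 1 of 12 principal cell and 1 of 7 intercalated cell markers tested. It was 1 of 3 for the thick limb list and 0 of 1 for the proximal tubule list, against 6.99% of all genes. Cldn16 had a mean of 0.092 TPM, near 0. Rhcg was 88.8 TPM in the parental line and 0.27 to 0.69 TPM in the intact clones, and it was 80.2 to 159 TPM in KO 1 to KO 4 but 1.02 TPM in KO 5. In bulk RNA, fewer cells of a type and less RNA per cell cannot be told apart.

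None of the 8 genes tested differed between KO and intact cells beyond the spread between samples. With limma on log2(TPM + 1) and Benjamini-Hochberg adjustment over the 20000 genes, 0 of the 8 tested members had an adjusted p under 0.05. In the same test 0.005% of all genes passed, which was 1 gene, Camk2d. At an unadjusted p under 0.05 the count was again 0 of 8, against 6.99% of all genes. The groups overlapped for each of the 8 members, whereas 1.64% of all genes had no overlap. Of the 8, 4 had a higher and 4 a lower mean in KO clones, and their median log2 ratio of 0.02 equalled that of all genes tested. The members' adjusted p ran from 0.82 to 0.982. The smallest p of a member in the two-sided exact permutation test of 5 against 5 samples, which was not adjusted, was 0.31, and with 1 value per cell line (3 against 5) it was 0.446.

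**Figure D1:**
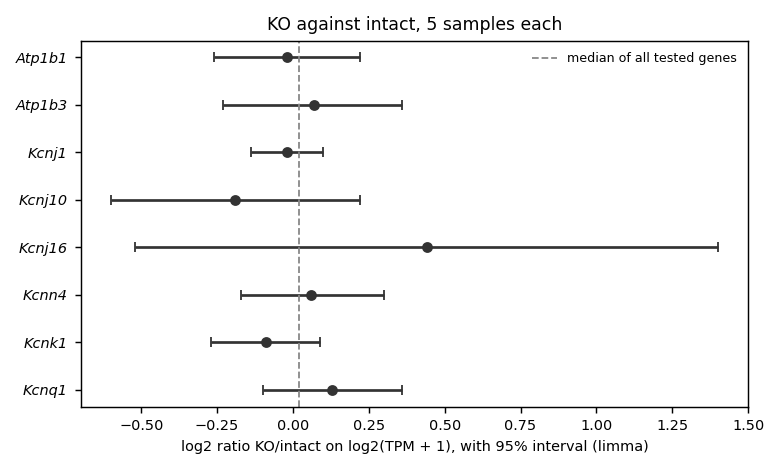
Log2 ratio of KO to intact on the log2(TPM + 1) scale (x axis) for the 8 members tested with limma, 5 samples in each group. Points are the estimates, bars their 95% intervals, and the dashed line the median of all genes tested (0.02). Every interval includes 0, and that of Kcnj16 is the widest, from -0.52 to 1.4. The intervals treat the paired samples of an intact clone as independent.

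The pump beta transcripts were abundant, and in KO 1 and KO 2 both lay outside the intact range, in opposite directions. Atp1b1 (ENSMUSG00000026576) encodes beta 1, the principal beta subunit of renal tubules. It was 714 TPM in the parental line, 660.5 and 683 TPM in the samples of intact clone 1, and 761 and 748 TPM in those of intact clone 2. In KO 1 to KO 5 it was 918, 569, 701, 694 and 673 TPM in that order. KO 1 was thus above and KO 2 below every intact sample, while KO 3, KO 4 and KO 5 lay within the intact range. On the log2(TPM + 1) scale KO minus intact was -0.02, with a standard error of 0.11 and a limma adjusted p of 0.982, with a 95% interval of -0.26 to 0.22.

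Atp1b3 (ENSMUSG00000032412) encodes beta 3, a more widely expressed beta subunit, and its levels in KO 1 and KO 2 had the opposite order. It was 155 TPM in the parental line, 146 and 145 TPM in intact clone 1, and 162 and 157 TPM in intact clone 2. From KO 1 to KO 5 the values were 126, 233, 152, 155 and 153 TPM. KO 1 was below and KO 2 above all intact samples, and the other KO clones were again within the intact range. Limma put the log2 ratio of KO to intact at 0.07 (standard error 0.13), and the adjusted p was 0.931, with a 95% interval of -0.23 to 0.36.

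The balance between the beta transcripts was nearly constant in 8 of the 10 samples. Atp1b1 made up 82.3% ± 0.288 (SD, n = 5) of the TPM of both genes in intact samples, where it ranged from 81.9% to 82.6%, and 81.5% to 82.2% in KO 3, KO 4 and KO 5. In KO 1 it was 87.9% and in KO 2 70.9%. Expressed as a ratio, Atp1b1 was 4.52 to 4.75 times as abundant as Atp1b3 in intact samples, 4.4 to 4.61 times in KO 3 to KO 5, 7.3 times in KO 1 and 2.44 times in KO 2. The summed level of both genes varied less than their balance in KO 2, where it was 802 TPM, close to the lowest intact sample with 807 TPM. In KO 1 the sum was 1044 TPM, above the highest intact sample with 923 TPM. These ratios are descriptions and were not tested.

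**Figure D2:**
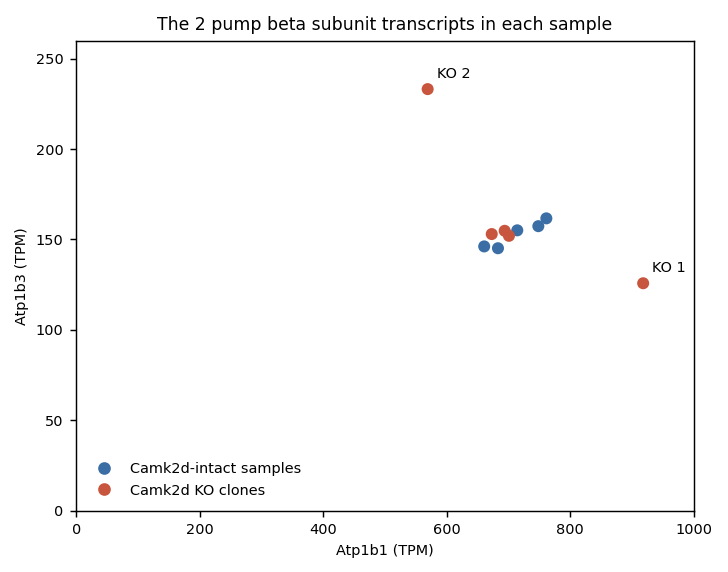
Atp1b1 (x axis, TPM) against Atp1b3 (y axis, TPM) in each of the 10 samples, blue for intact samples and red for KO clones. The 5 intact samples and KO 3, KO 4 and KO 5 lie close together, KO 1 lies at 918 and 126 TPM, and KO 2 at 569 and 233 TPM.

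Differences among the 5 KO clones were tested with a limma F-test in a fit with 1 coefficient per cell line. Each KO clone has 1 sample, which is assumed to vary like the paired samples of the intact clones, and the fit has 2 residual degrees of freedom before moderation. The test therefore sets separate clones against the spread between samples of 1 line, which may be technical, and it does not show that a difference exceeds the spread between cultures of a KO clone. Atp1b1 (adjusted p = 0.0483) and Atp1b3 (adjusted p = 0.03) passed, so 2 of the 8 members were called, against 4.91% of all genes, or 981. At an unadjusted p under 0.05 there were 6 of 8, against 28.8% of all genes. Neither gene was called once KO 1 and KO 2 were left out together, with an adjusted p of 0.736 for Atp1b1 and 0.914 for Atp1b3. The Atp1b1 call was also lost without KO 1 (0.113) or without KO 2 (0.0928), and the Atp1b3 call without KO 2 (0.114). Without any 1 of the 4 intact clone samples, neither gene was called, with an adjusted p of 0.174 to 0.178 for Atp1b1 and 0.138 to 0.174 for Atp1b3, and in each of those fits 0 of all genes were called. Without the intensity trend the adjusted p was 0.0809 for Atp1b1 and 0.0568 for Atp1b3. KO 1 and KO 2 were also the libraries least correlated with the others. They were the only clones made with the guide to exon 8, so leaving both out removed every clone of that guide. No test between guides was made, and the part of library or guide in the result was not tested. Some markers were called in this fit as well, with the same limits. The F-test called 4 of 12 principal cell markers (Avpr2, Hsd11b2, Fxyd4 and St6gal1) and 1 of 7 intercalated cell markers tested (Rhcg), against 4.91% of all genes. The vasopressin receptor Avpr2 was 192, 114, 264, 229 and 224 TPM in KO 1 to KO 5, against 222 to 251.8 TPM in intact samples. Hsd11b2, which inactivates glucocorticoids, was 11.5, 115, 29.3, 43.1 and 27.5 TPM in KO 1 to KO 5, against 17.8 to 24.5 TPM in intact samples, so that every KO clone lay outside the intact range. St6gal1 was 8.13, 30.6, 3.62, 9.05 and 6.72 TPM in KO 1 to KO 5, against 9.33 to 13.8 TPM in intact samples, with KO 2 above and the other KO clones below the intact range. Aqp2, which encodes the vasopressin-regulated water channel, was not called by the F-test (adjusted p = 0.0533). It was 1281, 1618, 3789, 2880 and 2856 TPM in KO 1 to KO 5, against 3773 to 5502 TPM in intact samples, and KO 3 alone lay within the intact range. The part of these differences in the beta subunit result was not tested.

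Between the intact clones, both beta transcripts had the higher values in clone 2. The log2 ratio of clone 2 to clone 1 was 0.17 for Atp1b1 (standard error 0.028, limma adjusted p 0.157) and 0.13 for Atp1b3 (standard error 0.023, limma adjusted p = 0.166). Each sample of clone 2 was above both samples of clone 1 for each gene, but neither difference passed the adjustment with 2 samples per clone. Of the 8 members tested, 0 were called between the intact clones with limma, against 0.025% of all genes, or 5. At an unadjusted p under 0.05 there were 3 of 8 (Atp1b1, Atp1b3 and Kcnn4), against 17.1% of all genes.

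To set the beta genes side by side, the RefSeq sequences around their starts are shown, from 250 bases before to 50 bases after the start on build GRCm38.p6. Atp1b1 lies at chr1:164458306-164458605 and Atp1b3 at chr9:96364382-96364681, both on the minus strand. Capitals mark matches, on either strand, to the GC box (GGGCGG or CCGCCC) and the CCAAT box (CCAAT or ATTGG), and the searched motifs do not overlap each other in these windows.
Atp1b1: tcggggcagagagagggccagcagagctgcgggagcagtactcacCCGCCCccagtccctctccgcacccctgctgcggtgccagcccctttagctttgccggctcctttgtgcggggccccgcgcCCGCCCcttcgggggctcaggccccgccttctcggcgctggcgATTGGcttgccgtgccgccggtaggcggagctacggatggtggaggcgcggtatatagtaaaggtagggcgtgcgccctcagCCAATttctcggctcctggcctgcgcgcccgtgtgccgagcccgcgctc
Atp1b3: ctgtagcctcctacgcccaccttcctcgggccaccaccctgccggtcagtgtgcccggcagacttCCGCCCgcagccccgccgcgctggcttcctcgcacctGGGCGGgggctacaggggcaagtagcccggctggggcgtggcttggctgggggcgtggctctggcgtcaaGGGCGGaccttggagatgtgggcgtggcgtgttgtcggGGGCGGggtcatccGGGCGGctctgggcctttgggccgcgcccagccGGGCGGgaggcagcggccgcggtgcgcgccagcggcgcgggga
The Atp1b1 window has a GC content of 71.0% with 2 GC boxes and 2 CCAAT boxes. That of Atp1b3 has a GC content of 76.0% with 6 GC boxes and no CCAAT box. Among 32851 promoter windows of 300 bases, 35.7% hold a GC box and 37.4% a CCAAT box. Neither window holds a TATA box (TATAAA or TTTATA, in 13.6% of all windows), a full cAMP response element (TGACGTCA, in 1.79%) or a glucocorticoid receptor half-site (AGAACA or TGTTCT, in 19.0%). RefSeq lists a second start for Atp1b3, and its window holds none of the 5 motifs. A match describes the letters and is not a binding site, and no match says only that the letters are not in the window. The other members with a promoter entry, of 8 in all, were searched in the same way, and Kcnj10 with 3 GC boxes and 2 CCAAT boxes had the most matches to these motifs among the channels.

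Among the FXYD regulators of the pump, Fxyd4 had its lowest level in KO 2. It encodes a collecting duct regulator that raises the sodium affinity of the pump, and it was 849 TPM in the parental line, 633 and 710 TPM in intact clone 1, and 663 and 677 TPM in intact clone 2. KO 2 had 194 TPM, and KO 1, KO 3, KO 4 and KO 5 had 588, 737, 721 and 690.02 TPM. KO 1 and KO 2 were below all intact samples, and the other KO clones lay within the intact range. Fxyd2, the gamma subunit, was 170 TPM in the parental line, 234 and 237 TPM in intact clone 1, 142 and 150.1 TPM in intact clone 2, and 216, 147, 122, 199 and 163 TPM in KO 1 to KO 5, so that the groups overlapped. Among the 5 FXYD genes tested out of 7, 0 were called between KO and intact samples with limma (0.005% of all genes) and 0 had an unadjusted p under 0.05 (6.99% of all genes). Their median log2 ratio was -0.14, against 0.02 for all genes. Among the KO clones, the F-test called Fxyd4 (adjusted p = 0.035) and Fxyd2 (adjusted p = 0.0464), which is 2 of 5 against 4.91% of all genes. Both calls come from the fit by cell line described above, in which 0 genes passed without any 1 intact clone sample.

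**Figure D3:**
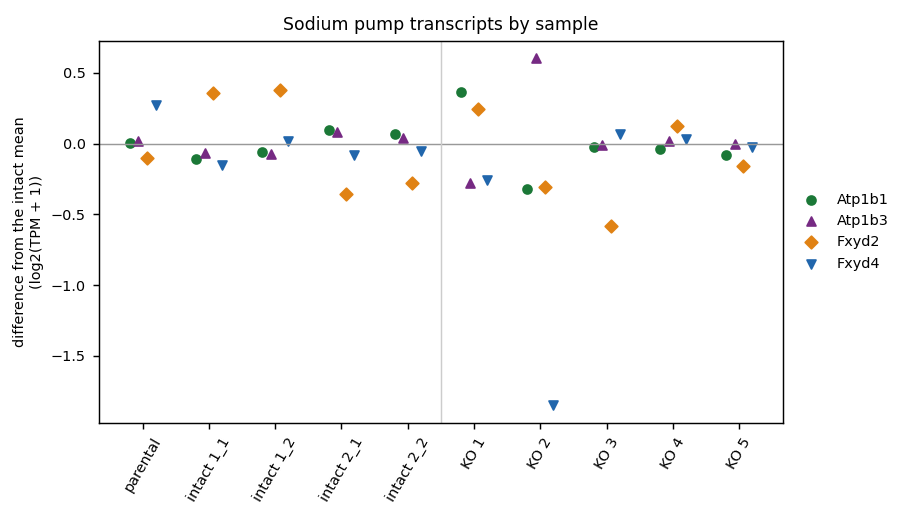
Difference of each sample from the intact mean on log2(TPM + 1) (y axis) for the beta 1, beta 3, FXYD2 and FXYD4 transcripts of the pump, by sample (x axis, intact samples left of the line). KO 2 lies below the intact mean for Atp1b1, Fxyd2 and Fxyd4, by the most for Fxyd4 (194 TPM against an intact mean of 706 TPM), and above it for Atp1b3.

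Among the potassium channels, Kcnk1 and Kcnq1 were abundant, Kcnj10 and Kcnj16 were near 1 TPM, and the secretory channel genes Kcnj1 and Kcnma1 were at or near 0. The table held 93 Kcn genes, of which 43 were listed at 0 in all samples, 8 had a mean of at least 1 TPM and 3 (Kcnk1, Kcnq1 and Kcnk5) a mean of at least 10 TPM. Kcnk1 alone held 83.8% of their summed TPM, and Kcnq1 7.93%.

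**Figure D4:**
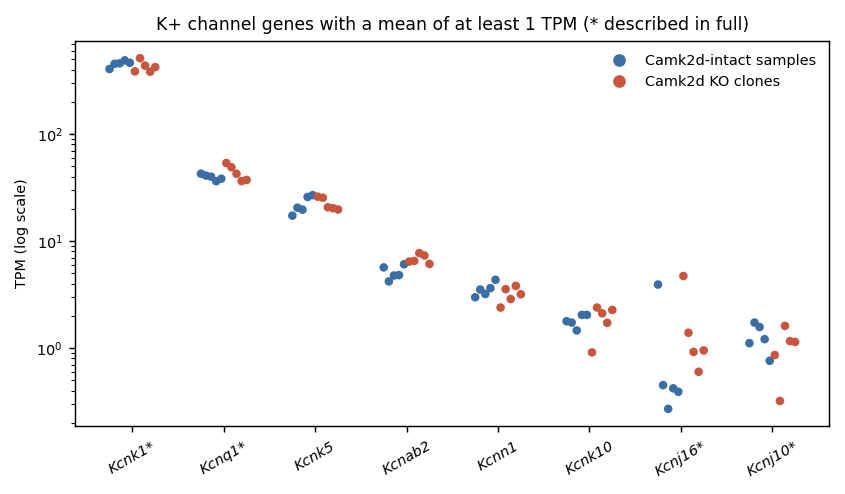
TPM (y axis, log scale) of the 8 Kcn genes with a mean of at least 1 TPM, ordered by their mean (x axis), with the 5 intact samples in blue and the 5 KO clones in red. Kcnk1 lies between 383 and 511 TPM, Kcnq1 between 36.3 and 53.6 TPM, and Kcnj16 has 2 high samples, 1 from each group.

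The inward rectifiers were low, and Kcnj16 had a wide range of levels among cell lines. Kcnj1 (ENSMUSG00000041248) encodes ROMK, the apical channel through which principal cells secrete potassium. It was 0.19 TPM in the parental line, 0.05 and 0.03 TPM in intact clone 1, 0.05 and 0.07 TPM in intact clone 2, and 0.04, 0.08, 0.05, 0.04 and 0.09 TPM in KO 1 to KO 5. The parental line was the highest sample, and the groups overlapped at a level close to 0. On the log2(TPM + 1) scale KO minus intact was -0.02, with a standard error of 0.053 and a limma adjusted p of 0.944, on a scale that understates the change of a gene this low.

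Kcnj10 (ENSMUSG00000044708) encodes the basolateral channel Kir4.1. It was 1.11 TPM in the parental line, 1.73 and 1.57 TPM in intact clone 1, and 1.21 and 0.76 TPM in intact clone 2. Values of 0.86, 0.32, 1.61, 1.16 and 1.14 TPM were found in KO 1 to KO 5. KO 2 was the lowest sample, and the other KO clones lay within the intact range. Limma put the log2 ratio of KO to intact at -0.19 (standard error 0.19), and the adjusted p was 0.828, with a 95% interval of -0.6 to 0.22. The ratio was -0.05 without KO 2 alone, 0.03 without both KO 1 and KO 2, and -0.39 with a pseudocount of 0.1.

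Kcnj16 (ENSMUSG00000051497) encodes Kir5.1, which forms channels with Kir4.1. It was 3.92 TPM in the parental line, against 0.45 and 0.27 TPM in intact clone 1 and 0.42 and 0.39 TPM in intact clone 2. KO 1 had 4.71 TPM, and KO 2, KO 3, KO 4 and KO 5 had 1.39, 0.92, 0.6 and 0.95 TPM. All 5 KO clones were above all 4 samples of the intact clones, but the parental line was above 4 of the 5 KO clones. The lowest and the highest sample differed 17.4-fold. In limma, KO differed from intact by a log2 ratio of 0.44 with a standard error of 0.43 (adjusted p = 0.833), and its 95% interval, 0.698-fold to 2.63-fold on the TPM + 1 scale, covers both directions. The log2 ratio was 0.81 without the parental line, 0.13 without KO 1 alone and 0.03 without both KO 1 and KO 2. It was 0.94 with a pseudocount of 0.1 and 0.19 with 1 value per cell line. Among KO clones the F-test gave an adjusted p of 0.0582, just above the threshold, 0.254 without KO 1, and 0.038 to 0.0464 under 3 other settings. The order of the pair also differed between lines, since Kcnj16 was 3.53, 5.48 and 4.34 times as abundant as Kcnj10 in the parental line, KO 1 and KO 2, and 0.172 to 0.833 times in the other 7 samples.

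Of the calcium-activated channels, the members Kcnma1 and Kcnn4 were close to 0, whereas Kcnn1, which is not a member, was 2.39 to 4.34 TPM. Kcnma1 (ENSMUSG00000063142), the pore-forming subunit of the BK channel, was listed at 0 in 9 samples and at 0.04 TPM in KO 2. Kcnn4 (ENSMUSG00000054342) encodes the intermediate-conductance channel KCa3.1. The parental line had 0.11 TPM, intact clone 2 had 0.19 and 0.14 TPM, and intact clone 1 was listed at 0 in each sample, beside 0, 0.45, 0.20, 0.04 and 0.03 TPM in KO 1 to KO 5. KO 2 was the highest sample, and samples at 0 occurred in both groups. On the log2(TPM + 1) scale KO minus intact was 0.06, with a standard error of 0.11 and a limma adjusted p of 0.919. The log2 ratio of intact clone 2 to clone 1 was 0.22 (limma adjusted p = 0.161), but its size is set by the pseudocount because clone 1 is at 0, and it was 0.41 with a pseudocount of 0.5 and 1.40 with 0.1. By contrast with Kcnma1, Lrrc26, whose product is a gamma subunit that lets BK channels open at lower voltage, was 46.0 ± 7.07 TPM in intact cells and 43.2 ± 5.65 TPM in KO cells (SD, n = 5 each, limma adjusted p = 0.888). It was the 1 gene tested of the 4 BK gamma subunit genes.

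Kcnk1 (ENSMUSG00000033998), which encodes the tandem pore domain channel TWIK-1, was the most abundant Kcn transcript in each of the 10 samples. It was 405 TPM in the parental line, 453 and 458 TPM in intact clone 1, and 488 and 463 TPM in intact clone 2. It was 385, 511, 435, 383 and 423 TPM in KO 1 to KO 5. KO 2 was above and KO 1 and KO 4 below the intact range. Limma put the log2 ratio of KO to intact at -0.09 (standard error 0.082), and the adjusted p was 0.82, and the 95% interval ran from -0.27 to 0.09. Its share of the summed Kcn TPM was lowest in KO 1 (79.0%) and highest in a sample of intact clone 1 (85.6%). The highest and lowest samples differed 1.33-fold, the narrowest range of the members above 1 TPM.

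Kcnq1 (ENSMUSG00000009545) encodes the voltage-gated channel KCNQ1, which in epithelia recycles potassium when paired with a KCNE subunit. It was 42.6 TPM in the parental line, 40.9 and 40.0 TPM in intact clone 1, 36.3 and 38.2 TPM in intact clone 2, and 53.6, 48.9, 42.5, 36.3 and 37.3 TPM in KO 1 to KO 5. KO 1 and KO 2 were above all intact samples, and the other KO clones lay within the intact range. In limma, KO differed from intact by a log2 ratio of 0.13 with a standard error of 0.1 (adjusted p = 0.82), with a 95% interval of -0.1 to 0.36, and it was -0.03 without KO 1 and KO 2. Among the KCNE subunit genes, chosen after their values were seen, Kcne3 was listed at 0 throughout and Kcne2 was at most 0.87 TPM. For Kcne1 the highest sample was KO 2 with 0.81 TPM, followed by a sample of intact clone 2 with 0.09 TPM.

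**Figure D5:**
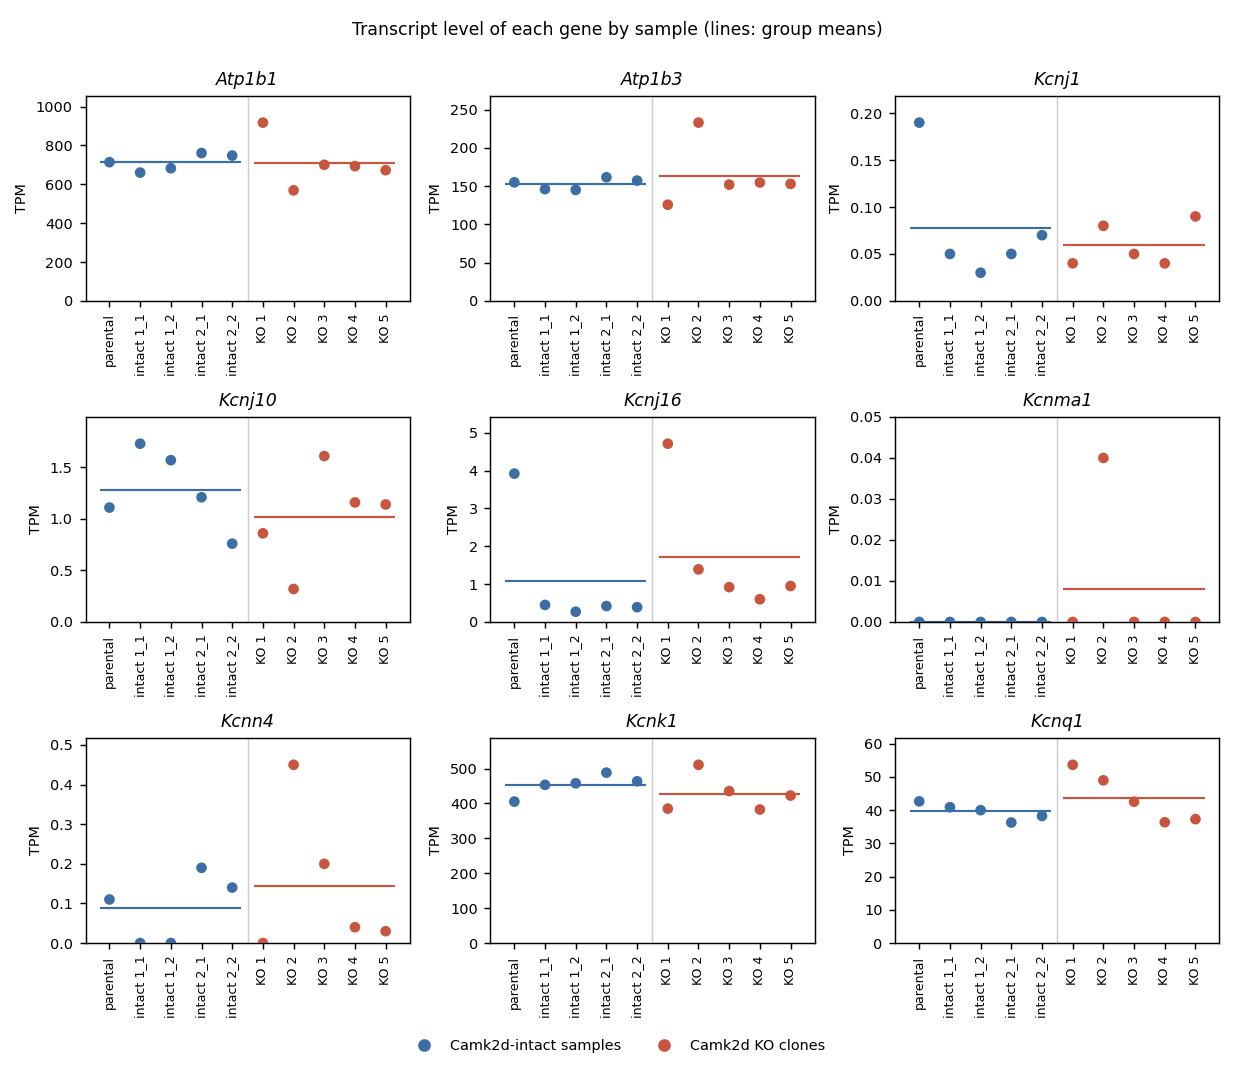
TPM (y axis, from 0, scaled separately for each gene) of the 9 genes in each sample (x axis), with intact samples in blue and KO clones in red. Horizontal lines are group means of 5 samples. The groups overlap for every gene, KO 1 or KO 2 is the most extreme KO clone in most panels, and Kcnma1 is above 0 in KO 2 only.

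None of the remaining potassium channel genes passed the test between KO and intact samples. Of 86 further Kcn genes, 23 were tested, 14 of these had a log2(KO/intact) above 0 and the median was 0.03. With limma 0 were called, and at an unadjusted p under 0.05 1 was higher and 2 were lower in KO clones, which is 3 of 23 against 6.99% of all genes. The higher gene was Kcnab2, a beta subunit of voltage-gated channels, with 5.1 ± 0.758 TPM in intact cells and 6.82 ± 0.675 TPM in KO cells (SD, n = 5 each). The log2 ratio was 0.36 with an adjusted p of 0.559 in limma. Among the 23 it was the only gene whose groups did not overlap (against 1.64% of all genes), with a highest intact value of 6.07 TPM and a lowest KO value of 6.11 TPM. The lower genes were Kcnj13 (Kir7.1), with a log2 ratio of -0.58 (adjusted p = 0.659), and Kcna7, with -0.21 (adjusted p = 0.631). The F-test among KO clones passed 1 of the 23 (against 4.91% of all genes), the BK beta subunit gene Kcnmb4, which was 0.54 TPM in KO 2, 0.23 TPM in KO 4 and listed at 0 in the other KO clones. Its paired intact clone samples are all listed at 0, so the gene has no spread of its own in that fit and the test rests on the moderation alone. Kcnk5, the acid-sensitive channel TASK-2, was the most abundant of the list with 22.0 ± 4.13 TPM in intact samples and 22.4 ± 3.02 TPM in KO clones (SD, n = 5 each).

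The kinase pathway upstream of these transporters and the related H,K-ATPase were also measured. In the WNK and SGK kinase pathway, which sets the surface abundance of transporters and channels in the distal nephron, 10 of 13 genes were tested, 0 were called with limma (0.005% of all genes) and 0 had an unadjusted p under 0.05 (6.99% of all genes), and 7 had a log2 ratio above 0 with a median of 0.04. Sgk1, the aldosterone-induced kinase, was 413 ± 94.8 TPM in intact cells and 372 ± 326 TPM in KO cells (SD, n = 5 each). It was 943 TPM in KO 1 and 149 to 306 TPM in the other KO clones, and the F-test among KO clones called it (adjusted p = 0.0302), as 1 of the 10 against 4.91% of all genes. Nedd4l, a ubiquitin ligase for the epithelial sodium channel, was 101 ± 1.32 TPM and 103 ± 13.1 TPM (SD, n = 5 each), and Cul3 was 121 ± 6.84 TPM and 125 ± 6.32 TPM (SD, n = 5 each). Of the H,K-ATPase subunits, 1 of 3 was tested, Atp4a with 1.36 ± 0.342 TPM and 1.06 ± 0.612 TPM (SD, n = 5 each, limma adjusted p = 0.82).

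The transcripts whose levels followed those of a member most closely were found by Pearson's r of log2(TPM + 1) among genes with a mean of at least 1 TPM. The 10 samples share their libraries and the TPM total, 4 of them come in pairs from a clone, and each gene is the closest of all those compared, so these values only describe the pattern. For Atp1b1 they were Mpc1 (r = 0.976), which encodes a mitochondrial pyruvate carrier subunit, and Smim5 (0.975), and over the 8 cell lines r was 0.99 and 0.977. Smim5 had its highest level in KO 1 (72.6 TPM) and its lowest in KO 2 (22.2 TPM), as Atp1b1 did. For Atp1b3 they were Alkbh8 (0.973), a tRNA-modifying enzyme, and Septin11 (0.97), a cytoskeletal GTPase with 179 TPM in KO 1 and 282 TPM in KO 2. The closest genes were Mrpl54 (0.982) and Anapc13 (0.958) for Kcnk1, Eda (0.971) for Kcnq1, Ergic3 (0.965) for Kcnj16, and Tnk1 (0.952) and Mrpl47 (0.938) for Kcnj10.

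The precision of a level also depends on whether reads can be assigned to 1 gene. When GENCODE M21 transcripts were divided into 50-base windows and both strands counted, 84.2% of those of Atp1b1 were in no other gene, and 15.8% were also in Nme7. For Atp1b3 the share was 90.3%, with 9.71% shared with Gm1848, and for Kcnk1 it was 94.2%, with 5.82% shared with Gm45875. The division of reads between these genes is therefore uncertain. For Kcnj1 and Kcnn4 all windows were unique, and for Kcnj10, Kcnj16 and Kcnq1 98.1% to 98.7% were.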

How the data were processed

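RNA-seq was run on 10 mpkCCD samples. The authors aligned reads from amplified full-length cDNA with STAR, quantified genes with RSEM against an Ensembl annotation, and deposited TPM per gene with 2 decimals, 1 column per sample (0 sample columns were left unused). TPM have the same sum whatever the depth, so neither counting intervals nor detection limits can be given, and zeros are described as listed at 0. The authors' own test used expected counts, which were not used here.

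The 20000 genes with the highest mean TPM (at least 0.049) were compared as log2(TPM + 1), with a pseudocount of 1, in limma 3.58.1 and R 4.3.3 (lmFit, eBayes with an intensity trend, Benjamini-Hochberg adjustment, threshold 0.05). The KO and intact groups entered a fit of 5 against 5 samples. Intact clone 2 against clone 1 and the F-test among KO clones came from a fit with 1 coefficient for each of 8 cell lines. For each member, a two-sided exact permutation test used 252 arrangements, or 56 with 1 value per line. Scripts were tested on simulated data. Python 3.11.15, pandas 2.3.3, numpy 2.4.6, scipy 1.17.1 and matplotlib 3.10.9 were used.

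Members and gene lists were chosen with earlier results of these data known. Genes named are all members, and per list the called genes, the 3 highest by mean TPM (of those tested), up to 2 per direction with the largest ratio at an unadjusted p under 0.05, the 2 genes most correlated with a member, and Camk2d and Aqp2. Some genes and lists that this rule takes in are not reported here. Fxyd4 is also a principal cell marker. Genes called among KO clones, the KCNE genes and single marker genes were named after their values were seen. Alternatives were other pseudocounts, gene filters, scalings and moderation, 1 value per cell line, cell line as a random effect, and leaving out samples. Promoters came from RefSeq (GRCm38.p6) and shared windows from GENCODE M21, whereas the authors used a later annotation. No coordinate came from the deposited files.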

Additional observations from a re-analysis of the deposited data

Results flagged for a closer look

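In 5 of the 17 groups of member values that varied, 1 sample lay far from the other 4 by Dixon's test (critical value 0.71 for 5 samples). Chance gives about 5% of groups if the samples are independent, which the intact samples are not, since 4 of the 5 come in pairs from 2 clones. For 1 of the 5, Kcnma1 in KO clones, the other 4 values are all 0, so the outcome was fixed and the group does not count against that share. Among KO clones, Atp1b3 was 233.23 TPM in KO 2. Kcnj16 was 4.71 TPM in KO 1 among the KO clones and 3.92 TPM in the parental line among the intact samples. Kcnj1 was 0.19 TPM in the parental line, at a level near 0 in all samples. Kcnma1 was 0.04 TPM in KO 2 and listed at 0 in the other KO clones.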

How the results depend on the processing

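The depth is unknown, each KO clone has 1 sample, and the intact samples come from 3 cell lines, which limits each comparison. The log2(KO/intact) of the 8 members tested had an adjusted limma p above 0.05 under each alternative in which the gene was tested. Kcnj1 and Kcnn4 were too low for the filter of a mean of at least 1 TPM. Its sign changed without KO 1 and KO 2, an alternative chosen after seeing the data, for Kcnj10 (0.0281) and Kcnq1 (-0.0328). With 1 sample left out it ran from -0.1171 to 0.0552 for Atp1b1, from -0.0678 to 0.1536 for Atp1b3, from -0.0386 to 0.0135 for Kcnj1 and from -0.0275 to 0.1065 for Kcnn4. The clone 2 to clone 1 ratio of Kcnj16 ran from -0.0456 to 0.1457. Genes called between KO and intact samples numbered 2 with a pseudocount of 0.1, and 1 to 2 with 1 sample left out. Between the intact clones, 1 gene was called with a pseudocount of 0.1 or 0.5, 2 with all genes above 0, 243 with a mean of at least 1 TPM, 11 without a trend, 191 with robust moderation, and 0 without any 1 clone sample, where 1 clone has a lone sample. Among KO clones, the calls were 3427 with all genes above 0, 1538 with a mean of at least 1 TPM, 482 without a trend, 1658 with robust moderation, 206 without KO 1 and KO 2, and 0 to 1264 with 1 sample left out (599 without KO 1, 434 without KO 2). The adjusted p among KO clones was 0.0809 without a trend, 0.736 without KO 1 and KO 2, and 0.0385 to 0.178 with 1 sample left out for Atp1b1. The same values were 0.0568, 0.914 and 0.0247 to 0.174 for Atp1b3. For Kcnj16 it was 0.0464 with all genes above 0, 0.038 with a mean of at least 1 TPM, 0.0426 with robust moderation and 0.0476 to 0.254 with 1 sample left out, for Kcnn4 0.0443 with all genes above 0, and for Kcnq1 0.0486 with a mean of at least 1 TPM. The cause of these changes was not tested, except that leaving out an intact clone sample reduces the residual degrees of freedom. No paired analysis was possible because the labels number no replicates shared between KO clones and intact samples.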
